A study of Arabidopsis thaliana with 4 samples.

Results

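PHT1 genes encode the plasma membrane transporters with which plants take up inorganic phosphate, and Arabidopsis thaliana has 9 of them, PHT1;1 to PHT1;9. The 9 genes were taken by their locus identifiers, whatever their values, from the 33557 genes of the deposited expression table, and all 9 are listed there. Poly(A)+ RNA was sequenced from plants of the Col-0 ecotype, 1 library for each of 4 genotypes: wild-type Col-0, the hho2-1 mutant, the phr1 mutant, both of them T-DNA insertion lines, and hho2phr1, which carries both alleles. All plants, the wild type included, had been kept vertically on agar medium lacking phosphate for 7 days, so no library shows these genes under sufficient phosphate. The labels give neither the organ harvested, nor the age at transfer, nor the number of plants pooled, and each single mutant is represented by 1 insertion line.

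PHT1 proteins couple phosphate entry to protons, and most family members are expressed in roots, where phosphate deprivation raises the transcripts of several of them. The MYB-related factor PHR1 activates many phosphate starvation genes through a short promoter element, the PHR1 binding sequence (P1BS), and SPX proteins hold PHR1 back when phosphate is plentiful. HHO2 is a GARP-type transcription factor of the HRS1 family, whose members bind other short elements and act in phosphate and nitrate responses.

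Each value is an FPKM, a fragment number divided by the length of the transcript and the size of the library, with a 95% interval that the authors deposited beside it. That interval describes the uncertainty within 1 library and holds no variation between plants, and no difference reported here has a replicate check. Whole fragment numbers could be recovered from the FPKM values for 8 of the 9 genes, within 0.026 of a whole number, and estimated for PHT1;2, which has 2 transcript models. Exact 95% counting intervals on these fragments cover counting error only, since reads without molecular identifiers are not independent molecules. In RNA from mixed tissue, fewer cells of a type and less RNA per cell cannot be told apart.

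The genotypes and the organ and cell markers were checked first. PHR1 was at 37.7 FPKM in Col-0, 43.2 in hho2-1, 7.54 in phr1 and 6.50 in hho2phr1. HHO2 was at 90.7 FPKM in Col-0, 59.8 in hho2-1, 81.2 in phr1 and 51.8 in hho2phr1, so transcript of each targeted gene was lower, but present, where its allele was carried. The decrease was smaller for HHO2, which did not reach the 2-fold threshold used below in any comparison. All 6 root hair markers, all 7 endodermis markers and all 8 photosynthesis markers were at 1 FPKM or more in every library, while the 3 pollen markers were listed at 0 in all 4. Root marker and photosynthesis transcripts were thus present in every library, which does not establish the organ harvested. Summed root hair markers lay between 583 and 658 FPKM, endodermis markers between 224 (hho2-1) and 270 (Col-0), with 235 in phr1 and 264 in hho2phr1, and photosynthesis markers between 4530 (phr1) and 5826 (hho2phr1). Library sizes behind the FPKM values lay between 39500000 fragments (phr1) and 48100000 (Col-0).

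PHR1 acts through P1BS, and promoters with that element near the gene start are described first. P1BS was searched as GNATATNC on both strands, from 250 bases before the first base of the annotated gene to 50 after it, in RefSeq annotation of TAIR10.1. It occurred in 3 of the 9 members and in 6.25% of 27443 promoters. The 3 promoters are printed 5′ to 3′ along the gene's own strand, to 10 bases past the start, with the P1BS match in capitals.
PHT1;2, chr5:17415448-17415707, plus strand: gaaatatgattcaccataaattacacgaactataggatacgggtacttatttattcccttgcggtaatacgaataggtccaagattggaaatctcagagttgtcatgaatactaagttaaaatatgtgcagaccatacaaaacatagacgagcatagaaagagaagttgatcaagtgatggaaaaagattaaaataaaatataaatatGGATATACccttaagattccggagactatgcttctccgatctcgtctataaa
PHT1;4, chr2:16256907-16257166, plus strand: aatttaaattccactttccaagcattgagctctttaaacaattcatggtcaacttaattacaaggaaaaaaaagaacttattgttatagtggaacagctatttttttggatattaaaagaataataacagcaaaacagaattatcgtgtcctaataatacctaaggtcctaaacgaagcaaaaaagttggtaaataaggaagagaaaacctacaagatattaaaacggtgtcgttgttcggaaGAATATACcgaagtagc
PHT1;7, chr3:20250939-20251198, minus strand: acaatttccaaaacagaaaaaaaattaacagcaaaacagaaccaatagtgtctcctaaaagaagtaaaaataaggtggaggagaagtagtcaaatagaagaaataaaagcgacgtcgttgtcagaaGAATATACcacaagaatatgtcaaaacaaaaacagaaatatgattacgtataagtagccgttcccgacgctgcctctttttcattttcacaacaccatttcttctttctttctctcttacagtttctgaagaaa
The match began at -42 in the first gene, at -7 in the next and at -124 in the last, counted from the RefSeq start. The last 2 of these elements have the same 8 bases. The deposited intervals start elsewhere, at 17415772 against 17415698 in RefSeq for PHT1;2 and at 16257228 against 16257157 for PHT1;4. On the minus strand, PHT1;7 starts at 20250070 against 20250948, which puts its match more than 250 bases before the deposited start. The count of 3 members thus holds for RefSeq starts.

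A longer window of 1000 bases before the start, added after the shorter one had been seen, held P1BS in 8 of the 9 members, with 11 matches, and in 20.9% of all promoters. PHT1;9 had none. The remaining matches are shown with 12 bases on each side, again with the element in capitals, and the match at -42 is repeated beside its closest relative.
PHT1;2 at -42, chr5:17415644-17415675, plus strand: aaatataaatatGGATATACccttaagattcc
PHT1;3 at -393, chr5:17409119-17409150, plus strand: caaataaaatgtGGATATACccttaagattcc
PHT1;1 at -786, chr5:17402925-17402956, minus strand: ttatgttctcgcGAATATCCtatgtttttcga
PHT1;1 at -768, chr5:17402907-17402938, minus strand: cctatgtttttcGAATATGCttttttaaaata
PHT1;2 at -569, chr5:17415117-17415148, plus strand: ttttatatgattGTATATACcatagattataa
PHT1;5 at -475, chr2:13930219-13930250, minus strand: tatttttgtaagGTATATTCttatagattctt
PHT1;6 at -511, chr5:17395640-17395671, minus strand: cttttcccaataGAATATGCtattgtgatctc
PHT1;7 at -322, chr3:20251251-20251282, minus strand: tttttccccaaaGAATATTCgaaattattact
PHT1;8 at -476, chr1:7259409-7259440, minus strand: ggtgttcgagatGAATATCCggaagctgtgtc
The first 2 of these windows, from neighbouring genes, were identical at 27 of 32 bases, and at 19 of the 24 bases flanking the element. The median over all 52 pairs of matches from different genes was 7 flanking bases, and the next highest pair had 12. Both windows also hold the reverse complement of GAATC, an element of the HRS1 family. GAATC occurred in 5 of 9 members in the shorter window, against 45.1% of promoters, and in 8 of 9 in the longer one, against 88.9%. The W box of WRKY factors, TTGACC or TTGACT, occurred in 4 of 9 against 32.4% and in 8 of 9 against 69.1%. GAATATTC, the second HRS1 family element, is also a P1BS match by its letters. It occurred in 0 of 9 in the shorter window, against 1.01%, and in 1 of 9, at -322 before PHT1;7, in the longer one, against 2.96%. These are matches of letters and do not show binding.

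**Figure D1:**
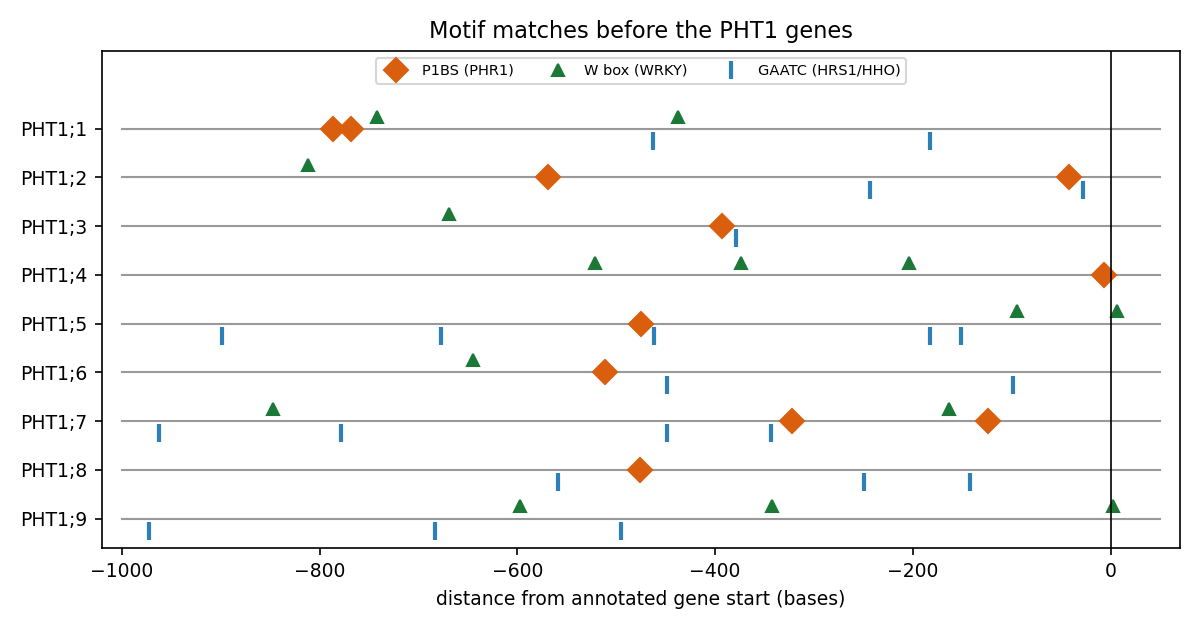
Matches to P1BS (diamonds), the W box (triangles) and GAATC (bars) before each PHT1 gene, by distance in bases from the annotated gene start, on both strands. P1BS lies before 8 of 9 genes, and within 250 bases of the RefSeq start in 3.

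Coding sequence bears on how fragments were shared between members. PHT1;1, PHT1;2, PHT1;3 and PHT1;6 lie within 24375 bases of chromosome 5 (chr5:17393598-17417972, TAIR10.1) with no other annotated gene between them. The coding sequences of the first pair are identical at 1539 of 1575 bases (97.71%), and those of PHT1;1 and PHT1;3 at 90.29%. The second and the third are identical at 89.65%, and outside the cluster the most alike were PHT1;4 and PHT1;7 (82.59%) and PHT1;8 and PHT1;9 (79.17%). Of all 50-base windows of the transcript, 42.4% of those of the first gene and 45.4% of those of the second recur in another member, against 1.32% for PHT1;3 and 0% for the other 6. Coding bases 1345 to 1434 of the nearly identical pair, the stretch shown because 11 of its 90 bases differ, carry those bases in capitals (RefSeq, TAIR10.1, along the coding strand).
PHT1;1: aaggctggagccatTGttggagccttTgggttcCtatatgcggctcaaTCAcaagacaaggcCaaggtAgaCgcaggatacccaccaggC
PHT1;2: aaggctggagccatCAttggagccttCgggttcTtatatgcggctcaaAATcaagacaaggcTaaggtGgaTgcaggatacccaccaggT
How the authors' tool assigned reads that fit both genes is not stated, so the split of fragments between these neighbours is uncertain, and their sum is given beside their own values.

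Among the uptake transporters of roots, PHT1;4 was the most abundant member in every library. This gene (AT2G38940, chr2:16257228-16260225 in the deposited TAIR10 table) encodes a main phosphate transporter of deprived roots. It was at 145 FPKM in Col-0 (authors' interval 115 to 176), 125 in hho2-1 (98.8 to 151), 149 in phr1 (118 to 180) and 146 in hho2phr1 (115 to 176), from 9509 to 11845 fragments. It ranked between 964 and 1153 among the 33557 genes. All 4 intervals overlapped, and the order of the libraries cannot be read beyond them. On the scale of log2(FPKM + 1), used for every difference below, phr1 minus Col-0 was 0.04 (-0.38 to 0.46, propagated from the authors' intervals). The difference was 0.22 (-0.20 to 0.64) for hho2phr1 minus hho2-1. In fragments, phr1 over Col-0 was 1.03 (counting interval 1.001 to 1.06) and hho2phr1 over hho2-1 was 1.17 (1.14 to 1.20), so this gene was not lower in either library with the phr1 allele.

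PHT1;1 (AT5G43350, chr5:17399789-17401949) encodes the other main uptake transporter of roots. Its level was 96.4 FPKM in Col-0 (76.5 to 116), 77.6 in hho2-1 (61.4 to 93.7), 80.3 in phr1 (63.7 to 97.0) and 66.3 in hho2phr1 (52.4 to 80.1). Col-0 was highest and the double mutant lowest, with overlapping intervals throughout. The differences were -0.26 and -0.22 with the phr1 allele in the Col-0 and hho2-1 backgrounds, and -0.31 and -0.27 with the hho2 allele in the Col-0 and phr1 backgrounds. The interval of each of these included 0. Endodermis markers were lower by a like amount in phr1 against Col-0 (6 of 7 below 0, median -0.23, against 50.5% of genes below 0). The same held in hho2-1 against Col-0 (5 of 7, median -0.19, against 49.7%). They were not lower in hho2phr1 against hho2-1 (1 of 7, median 0.07) or against phr1 (2 of 7, median 0.14). Root hair markers followed another course over these 4 comparisons. In that order, 4, 0, 6 and 4 of 6 were below 0, with medians of -0.07, 0.13, -0.12 and -0.08. The part of either cell type in the level of this gene was not tested. Fragment numbers were 7319, 5507, 5015 and 4261 in the same order of libraries, so counting error was small. The ratio of Col-0 to hho2phr1 was 1.46-fold (counting interval 1.40 to 1.51). As a log2 difference, hho2phr1 minus Col-0 was -0.53 (-0.95 to -0.12), an interval that left out 0. Of the genes compared, 2.63% were this low or lower.

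PHT1;2 (AT5G43370, chr5:17415772-17417798), a root transporter of the same cluster, had the widest range of the members on the log2(FPKM + 1) scale, 1.82. It stood at 11.2 FPKM in Col-0 (8.33 to 14.0), 10.99 in hho2-1 (8.22 to 13.8), 4.90 in phr1 (3.44 to 6.37) and 2.44 in hho2phr1 (1.56 to 3.32). The 2 libraries with wild-type PHR1 stood close together with overlapping intervals, and both libraries with the phr1 allele lay below them with intervals apart. The double mutant also lay below phr1 with intervals apart. About 761, 702, 275 and 141 fragments stand behind these values.

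Col-0 exceeded phr1 by 2.28-fold at this gene (counting interval 1.98 to 2.62), and hho2-1 exceeded hho2phr1 by 4.51-fold (3.76 to 5.44). The log2 differences were -1.04 (-1.53 to -0.55) and -1.80 (-2.30 to -1.30). For the hho2 allele the difference was -0.02 (-0.49 to 0.45) between hho2-1 and Col-0 and -0.78 (-1.29 to -0.27) between hho2phr1 and phr1, a ratio of 2.01 (1.63 to 2.48). The phr1 difference in the hho2-1 background minus that in the Col-0 background was -0.76 (-1.46 to -0.06). Of 20650 genes at 1 FPKM or more in some library, 2.12% had a value this low or lower. None of the other 6 members at 1 FPKM or more had an interval of this quantity that left out 0.

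By these values PHT1;1 and PHT1;2 took different courses. Their coding sequences are nearly the same, and the split of fragments between them is uncertain. Their ratio, first over second, was 8.65 in Col-0, 7.05 in hho2-1, 16.4 in phr1 and 27.1 in hho2phr1. Summed over the first 3 PHT1 genes, the level was 107.6, 88.6, 85.2 and 68.7 FPKM in the same order. The differences of that sum were -0.33 and -0.36 with the phr1 allele and -0.28 and -0.31 with the hho2 allele, so at the level of the sum neither allele gave a 2-fold difference.

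PHT1;8 (AT1G20860, chr1:7254007-7258677) and PHT1;9 (AT1G76430, chr1:28678935-28681995) form a related pair that contributes to phosphate acquisition and movement in deprived roots. The first stood at 4.54 FPKM in Col-0 (3.14 to 5.95), 3.78 in hho2-1 (2.56 to 4.99), 2.33 in phr1 (1.48 to 3.18) and 1.44 in hho2phr1 (0.838 to 2.04). The second stood at 4.31 (3.02 to 5.59), 3.15 (2.14 to 4.16), 1.42 (0.852 to 1.98) and 0.840 FPKM (0.454 to 1.23) in the same libraries. Both genes followed the order Col-0, hho2-1, phr1, hho2phr1 from high to low, but Col-0 and hho2-1 overlapped, as did phr1 and the double mutant.

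With the phr1 allele, the differences of PHT1;8 were -0.74 (-1.25 to -0.22) in the Col-0 background, where intervals just overlapped, and -0.97 (-1.48 to -0.46) in the hho2-1 background, where they were apart. Those of PHT1;9 were -1.13 and -1.17, with intervals apart in both. In fragments, the latter counted 351, 240, 95 and 58, and Col-0 exceeded phr1 by 3.04-fold (2.42 to 3.85) while hho2-1 exceeded the double mutant by 3.75-fold (2.80 to 5.08). The former counted 306, 238, 129 and 82, with ratios of 1.95 (1.58 to 2.42) and 2.63 (2.04 to 3.42). The hho2 allele went with smaller differences, of -0.21 and -0.45 for the first gene and -0.36 and -0.39 for the second, each with an interval that included 0.

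PHT1;7 (AT3G54700, chr3:20248425-20250070) is known for expression in pollen, and its transcript was found here while pollen markers were listed at 0. Its level was 1.34 FPKM in Col-0 (0.774 to 1.91), 1.84 in hho2-1 (1.12 to 2.55), 0.0175 in phr1 (0 to 0.0630) and 0.170 in hho2phr1 (0.0378 to 0.303). Col-0 and hho2-1 overlapped, and both libraries with the phr1 allele lay far below them. In fragments the values were 93, 119, 1 and 10. Col-0 exceeded phr1 by 76.5-fold with a counting interval of 13.4 to 3054, and hho2-1 exceeded hho2phr1 by 10.8-fold (5.66 to 23.1).

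The log2(FPKM + 1) scale compresses these folds to -1.20 (-1.56 to -0.85) and -1.28 (-1.68 to -0.88). In contrast to the preceding 3 genes, the libraries with the hho2 allele were the higher ones. The ratio was 1.37 (1.03 to 1.81) for hho2-1 over Col-0, with overlapping authors' intervals, and 9.71 for hho2phr1 over phr1, where the counting interval of 1.38 to 421 reflects the single fragment in phr1.

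PHT1;5 (AT2G32830, chr2:13927699-13929713), which moves phosphate between source and sink organs, was higher in the libraries with the hho2 allele. It was at 2.94 FPKM in Col-0 (1.96 to 3.92), 3.97 in hho2-1 (2.73 to 5.21), 2.98 in phr1 (1.99 to 3.97) and 5.29 in hho2phr1 (3.75 to 6.84). The highest and the lowest library still overlapped by the authors' intervals. Differences with the hho2 allele were 0.33 (-0.18 to 0.84) in the Col-0 background and 0.66 (0.16 to 1.17) in the phr1 background. Fragment numbers were 217, 274, 181 and 331. From the last 2 of these, the double mutant exceeded phr1 by 1.78-fold (1.48 to 2.14). The summed photosynthesis markers were likewise highest in hho2phr1, with 8 of 8 above phr1 and a median difference of 0.34, and their part in this result was not tested.

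PHT1;3 and PHT1;6 were at the limit of detection. The first (AT5G43360, chr5:17409524-17411214), a cluster member, had 1 fragment in Col-0, 1 in hho2-1 and 0 in both libraries with the phr1 allele. The second (AT5G43340, chr5:17393598-17395148), known from anthers, had 2, 4, 0 and 0. The 95% counting interval of a count of 0 reaches 3.69 fragments. A floor set at 3 fragments equals 0.0557 FPKM for the first gene in phr1, and no difference between genotypes was detectable at this depth.

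**Figure D2:**
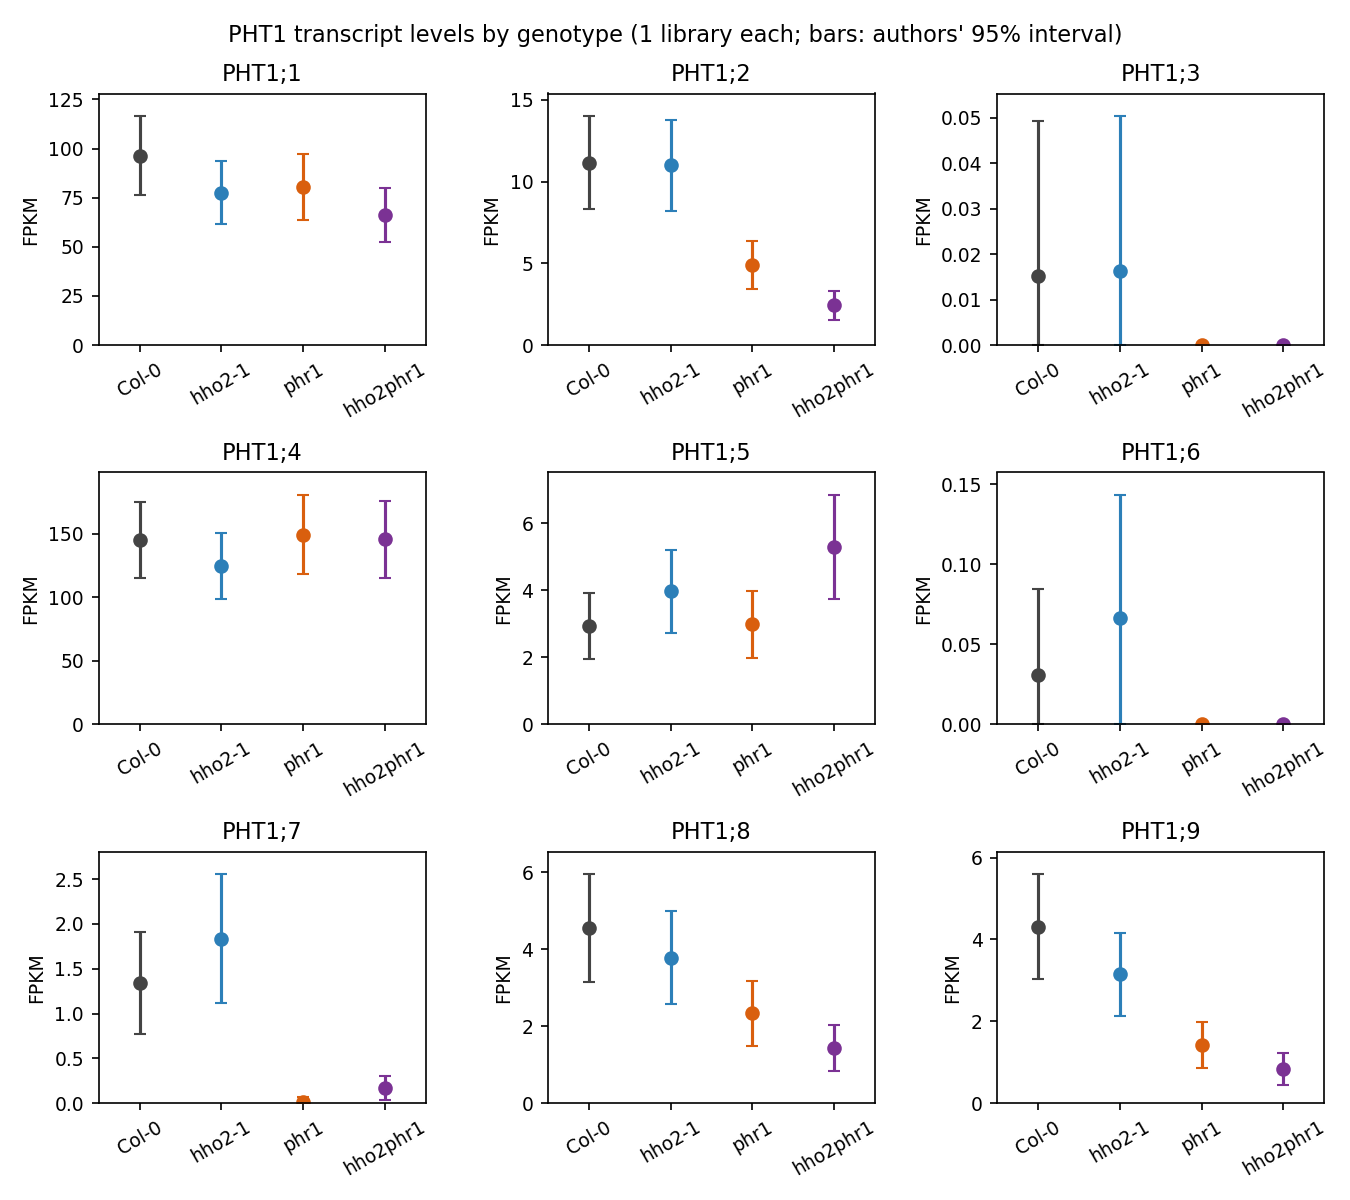
FPKM of each PHT1 gene in the 4 libraries, 1 library a genotype, with the authors' 95% interval as bars and a separate axis from 0 for each gene. The intervals of the libraries with and without the phr1 allele are apart for PHT1;2, PHT1;7 and PHT1;9, while those of PHT1;4 overlap throughout.

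Counted over the family, phr1 against Col-0 gave 3 members 2-fold lower, that is with a difference of -1 or less: PHT1;2, PHT1;7 and PHT1;9. Because of the added 1, this call asks for more than a 2-fold ratio of FPKM, above all in genes of low level. Of 20323 genes at 1 FPKM or more in either library, 0.576% were 2-fold lower, and 7 of the 9 members entered that comparison. PHT1;7 entered it only through Col-0, where it was higher. Without that minimum, the count was 3 of 9 members against 0.349% of all 33557 genes, and 0.0924% of them were 2-fold lower with the phr1 allele in both backgrounds.

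The same 3 members were 2-fold lower in hho2phr1 against hho2-1, where the share of all genes was 0.719%. Of these, PHT1;7 and PHT1;9 were at 1 FPKM or more only in hho2-1, where they were higher, and without that minimum the count was 3 of 9 members against 0.438% of all genes. These 2 comparisons share no library, and 0.154% of the 20129 genes compared in both were 2-fold lower in both. A fold of 1.5 in both, on the same scale, added PHT1;8, giving 4 members against 0.392% of genes. Its plain FPKM ratios were 1.95 in the Col-0 background and 2.63 in the hho2-1 background. The authors' intervals were apart, with the phr1 allele lower, for 3 members in the first comparison (0.408% of genes) and for 4 in the second (2.24%), the fourth being the one added at 1.5-fold. In neither comparison was a member 2-fold higher, against 0.773% and 1.27% of genes.

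**Figure D3:**
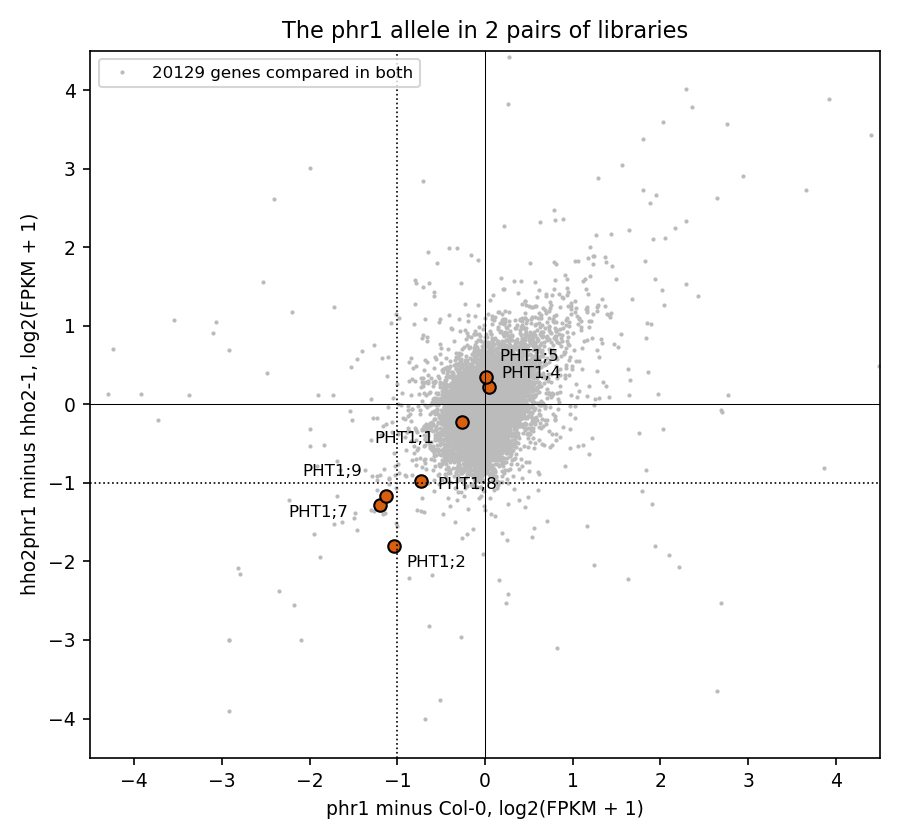
Difference of log2(FPKM + 1) with the phr1 allele in the Col-0 background (horizontal) and in the hho2-1 background (vertical), for 20129 genes (grey) and the 7 PHT1 genes compared in both (orange). Dotted lines mark -1, the 2-fold threshold, which 3 members pass on both axes, and 5 genes lie outside the axes.

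For the hho2 allele, 0 of 7 members were 2-fold lower in hho2-1 against Col-0 (0.462% of genes) and 0 of 6 in hho2phr1 against phr1 (0.472%). Members were 2-fold higher in neither, against 0.418% and 0.634% of genes. In hho2phr1 against phr1, PHT1;2 was lower by a plain FPKM ratio of 2.01, but its difference of -0.78 did not reach the threshold. Of the 6 compared in both, 5 were below 0 in both backgrounds, against 25.2% of genes. The exception was PHT1;5, and PHT1;7, which was under 1 FPKM in both libraries of the second comparison, was also above 0 in both (0.28 and 0.20). Endodermis markers were below 0 in 5 of 7 cases in hho2-1 against Col-0 (median -0.19) and in 2 of 7 in hho2phr1 against phr1 (median 0.14). Root hair markers were below 0 in 0 of 6 (median 0.13) and in 4 of 6 (median -0.08). All genes were below 0 in 49.7% and 51.6% of cases. The part of either cell type in the PHT1 values was not tested. Most of the PHT1 differences were small: 4 of the 5 members had propagated intervals that included 0 in both backgrounds. The libraries were also rescaled to equal sums without the gene MT1A, which held 11.2% (hho2-1) to 17.2% (phr1) of all FPKM. PHT1;2 was then at 0.03 rather than -0.02 in hho2-1 against Col-0, so its sign there depends on the scaling. With both alleles together, hho2phr1 against Col-0, 4 of 7 members were 2-fold lower (0.647% of genes), the fourth being PHT1;8 at -1.19 and PHT1;7 lying at the threshold. PHT1;7 and PHT1;9 entered it only through Col-0, where they were higher, and without the minimum the count was 4 of 9 members against 0.393% of all genes. A 2-fold higher level was seen for 0 of 7, against 1.26% of genes. This comparison shares its libraries with the others and adds no independent evidence.

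**Figure D4:**
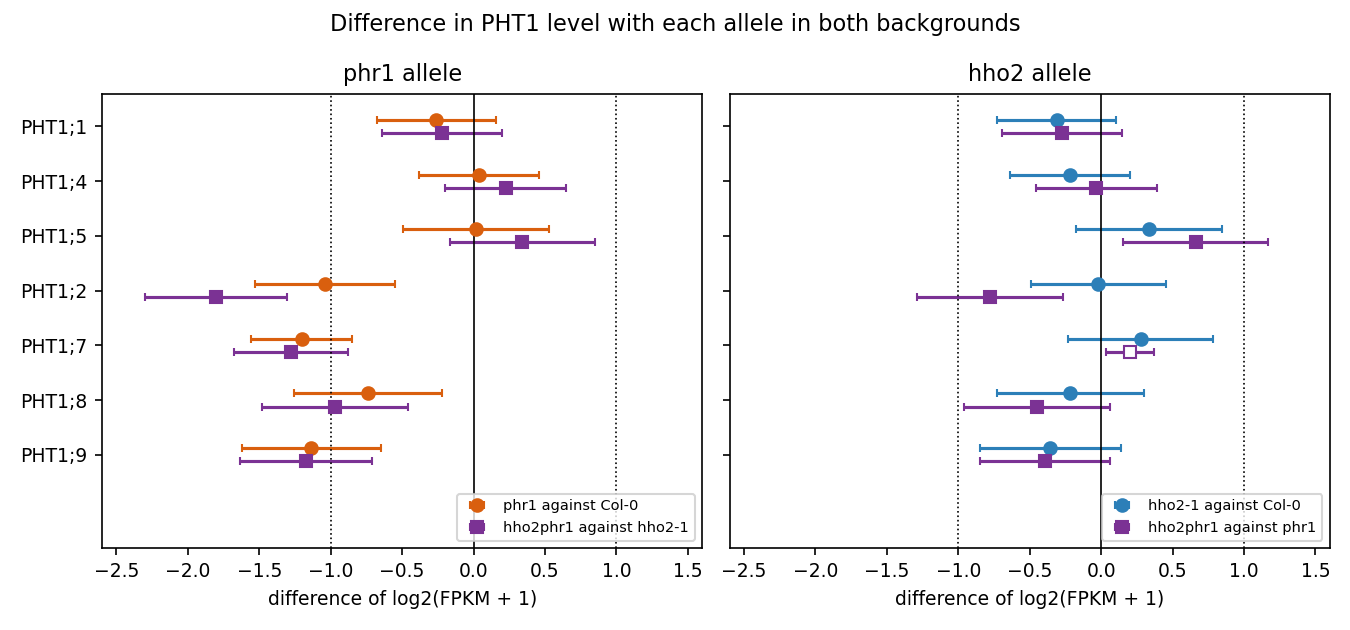
Difference of log2(FPKM + 1) for the 7 PHT1 genes at 1 FPKM or more in some library, with the phr1 allele (left) and the hho2 allele (right), each in the background with the other gene wild type (circles) and mutant (squares). Bars are 95% intervals propagated from the authors' intervals, dotted lines mark 2-fold, and the open square is a gene under 1 FPKM in both libraries. In the left panel the bars of the 4 lowest genes lie wholly below 0 in both backgrounds.

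Summed over all 9, PHT1 transcript amounted to 266.1 FPKM in Col-0, 226.1 in hho2-1, 241.3 in phr1 and 222.2 in hho2phr1. The double mutant thus kept 83.5% of the Col-0 sum, and phr1 90.7%. The 2 main uptake genes made up 90.9%, 89.5%, 95.2% and 95.4% of it. The members lower with the phr1 allele, taken as the 4 at 1.5-fold, summed to 21.3, 19.8, 8.67 and 4.89 FPKM, or 8.02%, 8.74%, 3.59% and 2.2% of the family. These 4 were grouped after their values were seen, and their sum is given as a description.

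**Figure D5:**
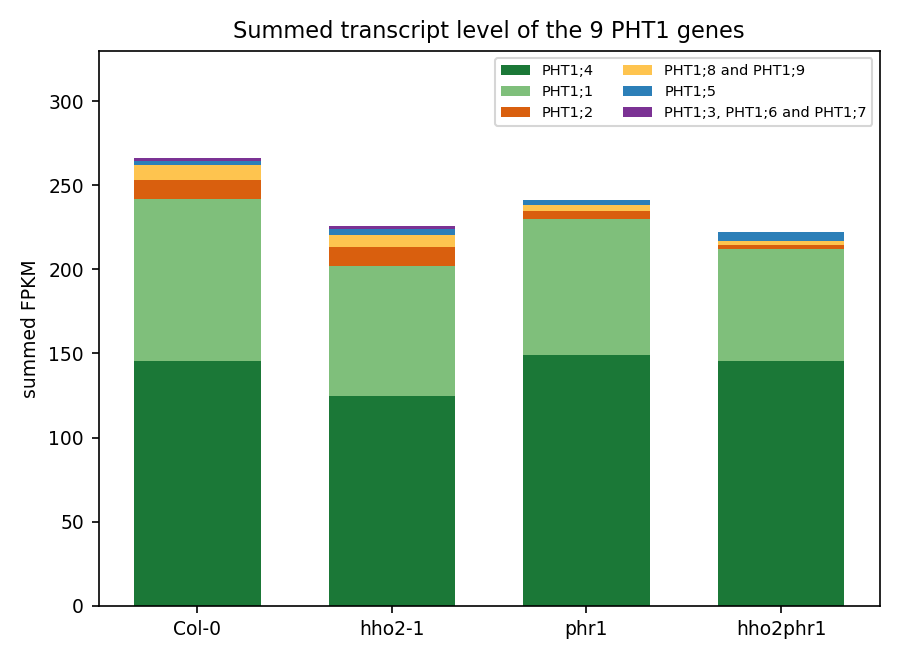
Summed FPKM of the 9 PHT1 genes in each library, stacked by gene. The 2 main uptake genes (green) fill 89.5% to 95.4% of each bar, and the sums range from 222.2 to 266.1 FPKM.

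Genes that act on PHT1 proteins were described beside the family. Of 5 genes of PHT1 trafficking and turnover, 0 were 2-fold lower or higher in any of the 5 comparisons, where the shares of all genes were 0.462% to 0.719% lower and 0.418% to 1.27% higher, so a count of 0 among 5 genes does not set them apart. PHF1, which lets PHT1 proteins leave the endoplasmic reticulum, was at 49.0 FPKM in Col-0, 44.4 in hho2-1, 42.4 in phr1 and 39.5 in hho2phr1. PHO2, which promotes degradation of PHT1 proteins, was at 77.1, 77.5, 82.2 and 101.6 FPKM, highest in the double mutant. NLA, a ubiquitin ligase for PHT1 proteins, was at 30.6, 27.1, 26.6 and 32.1 FPKM, on an interval shared with another gene.

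Of 16 transcriptional regulators, 3 were 2-fold lower in each comparison that sets a phr1 library against one with wild-type PHR1, against 0.576% of genes in phr1 against Col-0, 0.719% in hho2phr1 against hho2-1 and 0.647% in hho2phr1 against Col-0. They were PHR1, the gene that the allele disrupts, and is thus no response of the list, and the PHR1 inhibitors SPX1 and SPX3. SPX1 was at 444 FPKM in Col-0, 456 in hho2-1, 180 in phr1 and 179 in hho2phr1, and SPX3 at 101.5, 87.0, 25.5 and 27.1. WRKY45, an activator of PHT1;1, was at 67.5, 69.0, 82.9 and 84.1 FPKM. The list median lay between 0.01 and 0.06 in the 5 comparisons, near the median of all genes, and 0 of 16 were 2-fold different in hho2-1 against Col-0 or in hho2phr1 against phr1.

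Among 17 other phosphate transporters, which include exporters and transporters of organelles and the vacuole, 16 could be compared. The phosphate exporter gene PHO1;H1 was 2-fold lower in hho2phr1 against hho2-1 (-1.35) and against Col-0 (-1.09), which is 1 of 16 genes against 0.719% and 0.647% of all genes, and no other member of the list passed that threshold. It was at 26.9, 32.4, 15.8 and 12.1 FPKM in the 4 libraries, with 15.8 in phr1 against 26.9 in Col-0, a difference of -0.73. The list medians lay between -0.02 and 0.07.

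The 5 genes whose differences from Col-0 were nearest to those of PHT1;2 in all 3 mutants, among 17231 genes, were scpl22, PHT1;9, AT2G15029, AIG2L and AT1G21529. The largest of the 3 gaps on the log2 scale was 0.23 for scpl22, a serine carboxypeptidase-like gene, and 0.34 for PHT1;9. It was 0.34, 0.39 and 0.42 for the others, and 9 genes lay within 0.5. This likeness rests on 1 library a genotype, and the 3 differences share the Col-0 library.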

How the data were processed

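Poly(A)+ RNA of 4 genotypes was sequenced, 1 library each, with ScriptSeq v2 chemistry per the labels' protocols. The submitters' processing notes name the tools TopHat2 2.0.11 and Cuffdiff 2.2.1 and the genome build TAIR10. The authors deposited FPKM with 95% intervals and a status for each gene, per the file headers. The treatment of multiply aligned reads, the library type setting and the scaling between libraries are not given in the sources used here.

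The 4 value columns were matched to genotypes by name, with WT taken as Col-0 and dbl as the double mutant. All 9 PHT1 genes had status OK in every library, and none shared its interval with another gene. Genes at 1 FPKM or more in either library were compared on log2(FPKM + 1), and a difference of 1 or more was called 2-fold. No p-value is given, since the design has 1 library per genotype. Intervals of differences came from the authors' intervals by the delta method. Fragments were recovered as FPKM times library size and transcript length less 204.1 bases. In genes of up to 20 fragments, 100% of checked values came out whole within 0.02. Their exact intervals are Poisson or Clopper-Pearson.

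The PHT1 genes and the gene lists were chosen with earlier results of these data known. All PHT1 genes are named, from other lists the 2-fold members and the direct regulators, and the 5 genes nearest in pattern to the PHT1 gene of widest range. Sequences and gene starts are from RefSeq TAIR10.1, whose chromosome lengths hold every deposited interval. Motifs were exact matches. Scripts used Python 3.11.15, pandas 2.3.3, SciPy 1.17.1 and Biopython 1.88. Only the 2-fold lower call was run on simulated libraries with known changes.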

Additional observations from a re-analysis of the deposited data

How the results depend on the processing

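Counts of PHT1 genes 2-fold lower were recomputed with pseudocounts of 0.1 and 0.01, without the minimum of 1 FPKM, after 2 rescalings of the libraries, with authors' intervals required to be apart, at 1.5-fold, and with PHT1;1 to PHT1;3 summed. In hho2phr1 against phr1 the count went from 0 to 1 with a pseudocount of 0.01 and to 1 at 1.5-fold, PHT1;2 in both cases. The other counts stayed within 1.5 times the reported value. They were 2 to 4 for the phr1 allele in each background and in both together, 0 throughout in hho2-1 against Col-0, and 3 or 4 in hho2phr1 against Col-0. Summing the 3 genes gave the lower value for the phr1 allele, because PHT1;2 is then a small part of a sum made up mostly of PHT1;1. Of 180 recomputed differences of single genes, 153 moved by less than their interval, 27 moved by more, all under a smaller pseudocount, and 0 reversed a called sign. No paired analysis was possible because each genotype has 1 library. The depth limits PHT1;3, PHT1;6 and, in libraries with the phr1 allele, PHT1;7, which rest on 10 fragments or fewer there.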

Other observations

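Seed storage and oil body transcripts varied between the libraries in another pattern than PHT1 transcripts. The 4 seed markers CRU3, CRA1, OLEO1 and OLEO2 summed to 13.5 FPKM in Col-0, 62.2 in hho2-1, 2.96 in phr1 and 88.1 in hho2phr1. All 4 were 2-fold higher with the hho2 allele in both backgrounds, against 0.418% of genes in hho2-1 against Col-0 and 0.634% in hho2phr1 against phr1. With the phr1 allele they were 2-fold lower in the Col-0 background in 4 of 4 cases (0.576% of genes) and in 0 of 4 in the hho2-1 background (0.719%). OLEO2 (0.530 FPKM) and OLEO1 (0.108) were under 1 FPKM in phr1. They entered the comparisons with that library only through Col-0 or hho2phr1, where they were higher. Without the minimum of 1 FPKM, 0.349% of all 33557 genes were 2-fold lower in phr1 against Col-0. The part of the seed marker differences in the PHT1 values was not tested. Among photosynthesis markers, LHCB1.1 was 2-fold higher in hho2phr1 against phr1, by 1.46 on the log2 scale.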
